A study of Mus musculus with 6 samples.

Results

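miR-10a and miR-10b are 2 closely related microRNAs (miRNAs) encoded inside the Hox gene clusters. Their reads were taken from the miRNA table of mature sperm as every row whose base name is mmu-miR-10a or mmu-miR-10b (mmu stands for mouse), either arm, which gave 4 of 778 miRNA features: miR-10a-5p, miR-10b-5p, miR-10a-3p and miR-10b-3p. Small RNA had been sequenced from sperm of the cauda epididymis, where sperm are stored, of 8-week-old male C57BL/6 mice; 3 samples came from mice made depressed by stress and 3 from normal mice, called stress and normal samples here. The labels do not say how the stress was applied, or whether a sample is 1 animal or a pool. Nor do they state that replicates are separate animals; the p-values then describe the spread among the sequenced samples, part or all of which can be technical.

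A miRNA gene is transcribed as a hairpin, which is cut to a short duplex, and usually one arm is kept in the silencing complex, where bases 2 to 8 (the seed) pair with target mRNAs. Vertebrate miR-10 genes sit among the Hox genes, which set position along the body axis, and Hox mRNAs are among their known targets; human miR-10b was shown to repress HOXD10 in breast cancer cells. Mature sperm make hardly any RNA themselves, and part of their small RNA is delivered by vesicles of the epididymal epithelium.

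The mature arms are shown because their likeness decides how well the members can be told apart; capitals mark the seed. The table's sequences and those of RefSeq (GRCm38.p6) were identical for all 4 arms.
miR-10a-5p: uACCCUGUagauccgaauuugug
miR-10b-5p: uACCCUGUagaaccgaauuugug
miR-10a-3p: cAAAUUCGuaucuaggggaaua
miR-10b-3p: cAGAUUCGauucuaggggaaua

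The 5p arms share their seed and differ at 1 of 23 bases, U12A (the base of miR-10a-5p first, counted from the 5′ end). No other feature of the table has this seed. The 3p arms differ at 3 of 22 bases, A3G, U9A and A10U, and the first of these lies in the seed, so the 3p seeds are not shared. A sequencing error at base 12 could turn a read of one 5p arm into the other. In the deposited values only stress replicate 3 held a fraction, 0.5 of a read in each 5p arm; all other values of the 4 arms were whole numbers. The rule by which reads with a mismatch were assigned is not given in the sources used here, so the split between the 5p arms carries that uncertainty, which their sum largely avoids.

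The closest relatives outside the Hox clusters, miR-99a, miR-99b and miR-100, resemble the 5p arms downstream of the seed but have another seed, shared among themselves.
miR-99a-5p: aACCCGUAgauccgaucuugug
miR-100-5p: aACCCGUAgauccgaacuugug
miR-99b-5p: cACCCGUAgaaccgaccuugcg

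The hairpins show where the arms come from; here capitals mark both mature arms.
Mir10a hairpin: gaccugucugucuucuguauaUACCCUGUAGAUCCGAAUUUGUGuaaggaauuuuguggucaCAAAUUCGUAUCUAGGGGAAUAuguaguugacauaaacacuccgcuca
Mir10b hairpin: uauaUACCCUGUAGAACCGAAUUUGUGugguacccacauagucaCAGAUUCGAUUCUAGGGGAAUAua

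Mir10a lies on chromosome 11, plus strand, 96317165 to 96317274 (GRCm38), in the Hoxb cluster. In GENCODE M21 it is outside every Hox transcript, 0.993 kb upstream of Hoxb4 and 11.04 kb downstream of Hoxb5. Mir10b lies on chromosome 2, plus strand, 74726070 to 74726137, in the Hoxd cluster. It is intronic in 2 transcripts of Hoxd4 and 1 long transcript of Hoxd3, and overlaps no Hox exon. Both hairpins are on the strand of the Hox genes around them.

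**Figure D1:**
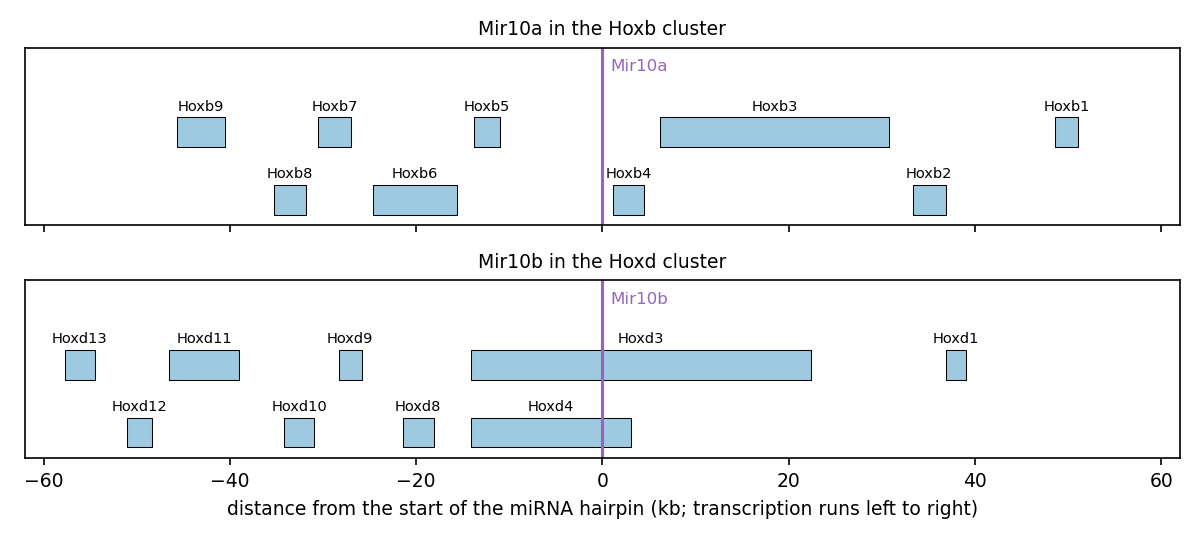
Protein-coding Hox genes (boxes, GENCODE M21) around Mir10a and Mir10b (vertical lines), by distance in kb from the start of the hairpin. Mir10a stands 0.993 kb before Hoxb4, and Mir10b lies inside the spans of Hoxd4 and Hoxd3.

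The 5p arms were among the most abundant miRNAs of every sample, and they ranked higher in stress sperm. miR-10a-5p ranked 2nd in each stress sample, against ranks 4, 3 and 3 in normal replicates 1 to 3. miR-10b-5p ranked 3rd in each stress sample, against ranks 5, 4 and 4 in normal replicates 1 to 3. A rank also depends on the other miRNAs. let-7c-5p stood above both arms in every normal sample and below both in every stress sample. In normal replicate 1 let-7b-5p stood above both as well. The 3p arms ranked between 156 and 199 in stress and between 158 and 269 in normal samples. Depth was 1010203 to 1522849 miRNA reads in stress and 1083237 to 3067208 in normal samples; normal replicate 3 was the deepest library.

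miR-10a-5p took 9.12%, 10.4% and 10.5% of the miRNA reads in stress replicates 1 to 3, against 6.83%, 7.64% and 7.68% in normal replicates 1 to 3. Every stress sample was above every normal sample, as for 56.8% of the 236 miRNAs that passed the filter on low counts. The mean was 10.02% ± 0.783 in stress and 7.38% ± 0.481 in normal samples (SD, n = 3 each), a difference of 2.64 percentage points ± 0.530 SE. The exact two-sided permutation test gave p = 0.1, the smallest that 3 samples against 3 allow (adjusted p = 0.18 over the 9 share and ratio comparisons made).

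miR-10b-5p took 8.16%, 9.27% and 8.36% of the miRNA reads in stress replicates 1 to 3, against 5.65%, 5.96% and 5.61% in normal replicates 1 to 3. Again the groups did not overlap, and the gap between them was wider than for miR-10a-5p. The mean was 8.597% ± 0.592 in stress and 5.74% ± 0.189 in normal samples (SD, n = 3 each), a difference of 2.86 percentage points ± 0.359 SE (exact permutation p = 0.1). The 4 arms together took 17.3% to 19.7% in stress and 12.5% to 13.6% in normal samples, a ratio of means of 1.42. Counting error is small beside this: for the lowest of these shares, miR-10b-5p in normal replicate 3, the exact 95% binomial interval was 5.59% to 5.64%, covering counting error only.

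A higher share was common in these samples: only 5.51% of the 236 miRNAs had a share that was lower in every stress than in every normal sample. The members' shares are therefore read against a background in which most miRNAs stood higher. In bulk samples, more RNA per cell and more cells of a type cannot be told apart.

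The share of an abundant miRNA depends on the other abundant ones. The let-7 family took 18.7% to 23.7% of the reads in stress and 24.0% to 41.0% in normal samples. The miR-148/miR-152 family took 38.5% to 42.6% in stress and 33.7% to 50.1% in normal samples. All miRNAs outside these families and outside miR-10 took 20.3% ± 1.11 in stress and 12.9% ± 0.675 in normal samples (SD, n = 3 each), also without overlap.

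**Figure D2:**
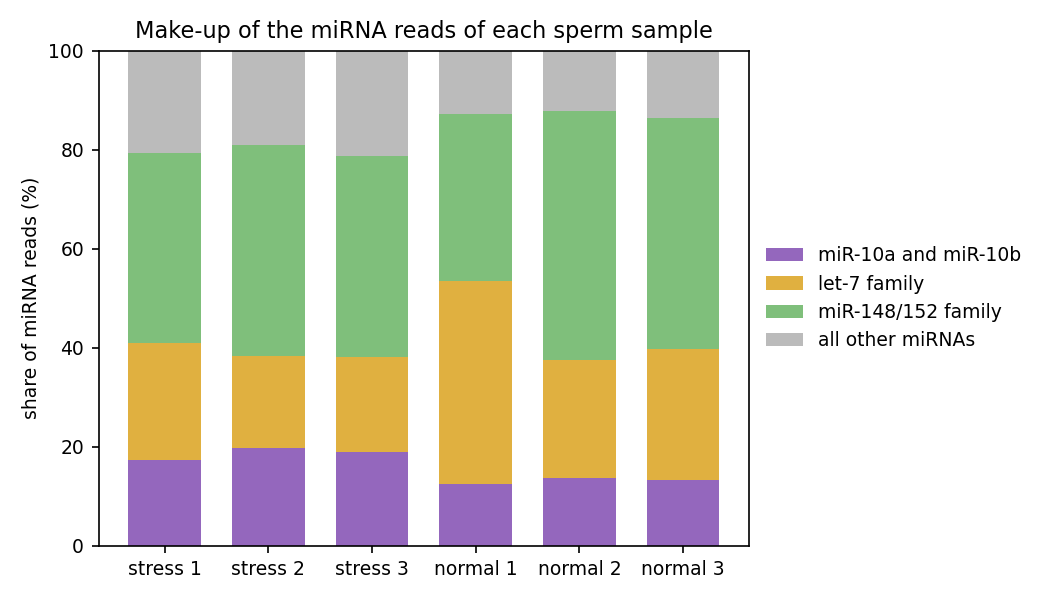
Share of the miRNA reads in percent (vertical axis) taken by miR-10a and miR-10b, the let-7 family, the miR-148/miR-152 family and all other miRNAs in each sample. The miR-10 segment spans 17.3% to 19.7% in the stress samples and 12.5% to 13.6% in the normal samples.

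Within the reads left after setting let-7 and miR-148/miR-152 aside, the order of the groups was lost. miR-10a and miR-10b made up 45.7%, 50.8% and 47.2% of those reads in stress replicates 1 to 3, against 49.3%, 52.6% and 49.4% in normal replicates 1 to 3. The groups overlapped, and the difference was −2.52 percentage points ± 1.87 SE (exact permutation p = 0.3). Of 220 tested miRNAs outside the families set aside, 26.8% were higher and 14.5% lower on this basis without overlap; the 5p arms of miR-10 together are the largest item in this denominator, so a change of theirs is damped here.

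Ratios to a single other miRNA need no scaling. The miR-10 5p arms gave 0.451, 0.463 and 0.466 reads per read of miR-148a-3p, the most abundant sperm miRNA, in stress replicates 1 to 3, against 0.371, 0.272 and 0.285 in normal replicates 1 to 3. The stress samples lay close together and above all normal samples; the log2 difference was 0.59 ± 0.14 SE (exact permutation p = 0.1, n = 3 per group). Of the 235 other tested miRNAs, members included, 57.9% were higher relative to miR-148a-3p in stress samples without overlap and 3.4% were lower. Relative to the summed let-7 family, the 5p arms gave 0.730, 1.05 and 0.986 reads per read in stress replicates 1 to 3, against 0.304, 0.567 and 0.504 in normal replicates 1 to 3. The log2 difference was 1.04 ± 0.32 SE (exact permutation p = 0.1, n = 3 per group), and 69.6% of 224 tested miRNAs were higher and 2.23% lower on this basis without overlap.

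edgeR was run on the whole table with TMM scaling, which takes the bulk of the miRNAs as level; values are TMM-scaled counts per 1000000 reads (CPM). On this scale miR-10a-5p stood at 70741, 83650 and 76577 CPM in stress replicates 1 to 3, against 88369, 111741 and 89345 CPM in normal replicates 1 to 3. The order of the groups was thus turned round, with every stress sample below every normal sample, as for 20.8% of the tested miRNAs; 18.6% were higher without overlap on this scale. The log2 fold change of miR-10a-5p was −0.33 ± 0.17 SE, which did not pass in edgeR's quasi-likelihood test (adjusted p = 0.22 over 236 miRNAs). miR-10b-5p stood at 63338, 74628 and 60702 CPM in stress replicates 1 to 3, against 73167, 87175 and 65295 CPM in normal replicates 1 to 3. These groups overlapped, and the log2 fold change was −0.18 ± 0.18 SE (edgeR adjusted p = 0.52). Of all miRNAs tested, 12.7% passed at an adjusted p of 0.05, 6 (2.54%) higher and 24 (10.2%) lower in stress; the count of 30 became 55 without normal replicate 3 and 17 without stress replicate 3. In edgeR 0 of the 4 members were among them and 0 had an unadjusted p under 0.05, against 32.2% of all tested miRNAs. In DESeq2 0 of the 4 passed, against 19.9% of all. References of the ratios above were called lower in edgeR. These were miR-148a-3p (−0.87, adjusted p = 0.016) and, of let-7, let-7c-5p (−1.86, adjusted p = 0.0032), let-7a-5p (−1.38, adjusted p = 0.0044) and let-7b-5p (−2.27, adjusted p = 0.0074). Also called lower were let-7e-5p (−1.56, adjusted p = 0.0074) and let-7d-3p (−1.14, adjusted p = 0.016). Some let-7 arms, such as let-7g-5p (0.45), were higher and did not pass. Those ratios do not tell which side moved.

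**Figure D3:**
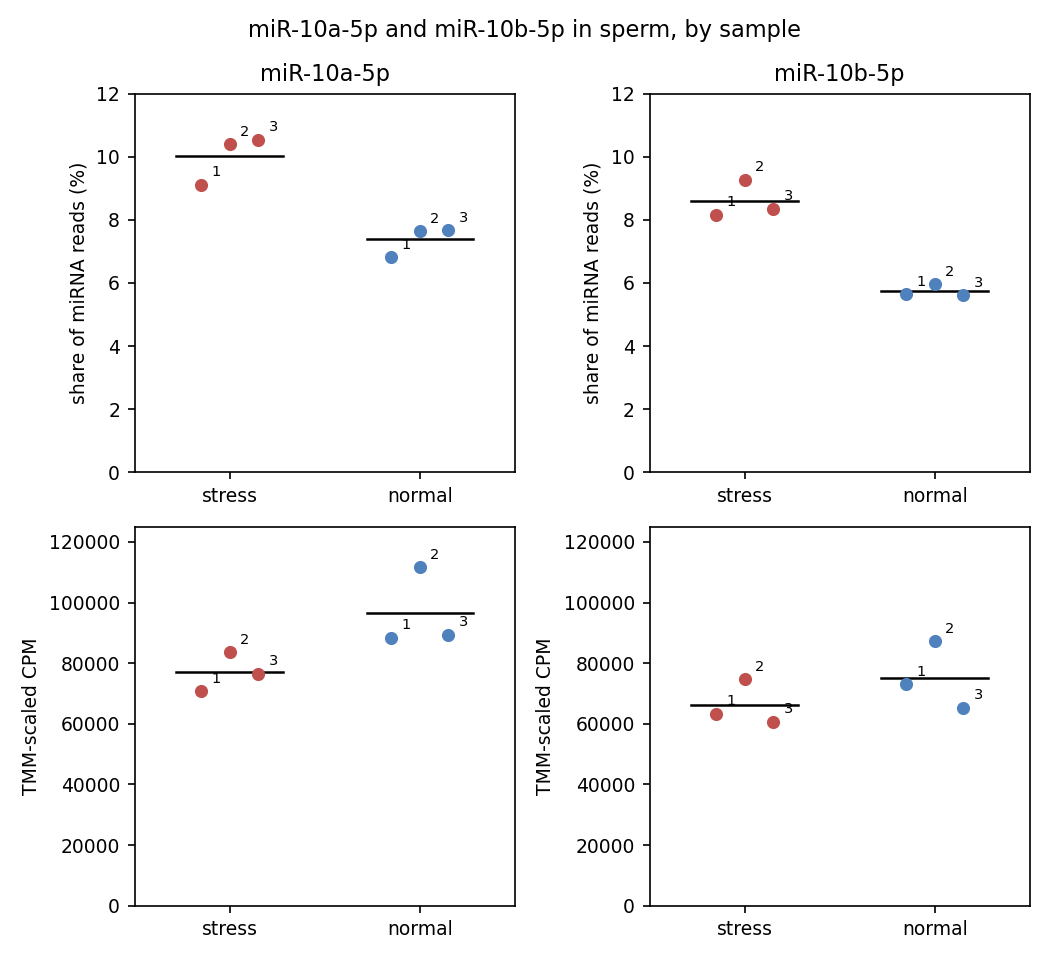
Share of miRNA reads in percent (top) and TMM-scaled CPM (bottom) of miR-10a-5p (left) and miR-10b-5p (right) in each sample; numbers are replicates and lines are group means, n = 3 per group. Stress samples lie above normal samples in share, while on the TMM scale miR-10a-5p lies below them in all stress samples and the groups of miR-10b-5p overlap.

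The direction for the 5p arms was set by the scaling. Scaled to the miRNA total, edgeR gave log2 fold changes of 0.44 ± 0.14 SE for miR-10a-5p (adjusted p = 0.029) and 0.58 ± 0.14 SE for miR-10b-5p (adjusted p = 0.011), and both passed as higher in stress. With that scaling 40.7% of all tested miRNAs passed as higher and 4.24% as lower, and the median of all miRNAs was 0.76. Relative to that median, miR-10a-5p was at −0.32 and miR-10b-5p at −0.18; with TMM, where the median was 0.00, they were at −0.33 and −0.18. Both 5p arms thus lay below the median miRNA by about the same amount under either scaling. This change of scaling moves the miRNAs and their median nearly alike, so the likeness follows from construction and is no separate evidence. With TMM the distance of miR-10b-5p from the median was about as large as its SE of 0.18. The TMM factors behind this shift were 1.24 to 1.38 in stress and 0.683 to 0.860 in normal samples.

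Other references lay between these scalings. Scaled to the reads outside let-7 and miR-148/miR-152, miR-10a-5p was at −0.14 ± 0.14 SE and miR-10b-5p at 0.00 ± 0.14 SE (edgeR adjusted p = 0.48 and 0.99), with 16 miRNAs called higher and 17 lower. The piRNA table of the same samples gave 72652 to 100913 reads in stress and 73594 to 86194 in normal samples, as a reference from another class of small RNA. There were 1.79, 3.92 and 2.63 miR-10 reads per piRNA read in stress replicates 1 to 3, against 1.84, 1.99 and 4.73 in normal replicates 1 to 3. These ranges overlapped broadly, with normal replicate 3 the highest. For all miRNAs together there were 10.4, 19.9 and 13.9 reads per piRNA read in stress replicates 1 to 3. In normal replicates 1 to 3 there were 14.7, 14.6 and 35.6, so normal replicate 3 was the highest there too. With this scaling, added after the data were seen, miR-10a-5p was at −0.11 ± 0.63 SE and miR-10b-5p at 0.06 ± 0.64 SE (edgeR adjusted p = 0.97 for each), with 3 miRNAs called higher and 3 lower.

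**Figure D4:**
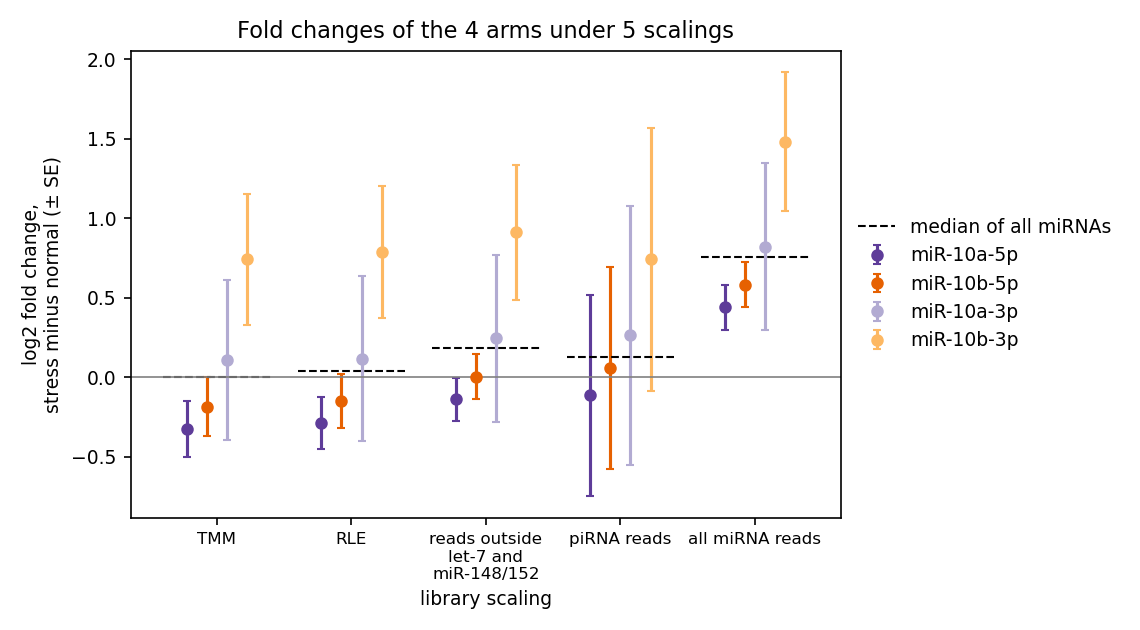
log2 fold change (stress minus normal, ± SE, n = 3 per group) of the 4 arms in edgeR under 5 library scalings, with the median of all tested miRNAs as a dashed line. The 5p arms lie below the dashed line under each scaling shown, at −0.33 and −0.18 with TMM and at 0.44 and 0.58 scaled to all miRNA reads. Except with piRNA reads, a change of scaling moves the arms and the dashed line nearly alike, by construction. Scaled to piRNA reads, miR-10b-5p is at −0.07 relative to the dashed line, against −0.18 with TMM.

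miR-10a-5p exceeded miR-10b-5p in all 6 samples, and its lead was on average smaller in stress sperm. There were 1.12, 1.12 and 1.26 reads of miR-10a-5p per read of miR-10b-5p in stress replicates 1 to 3, against 1.21, 1.28 and 1.37 in normal replicates 1 to 3. The groups overlapped in 1 sample, stress replicate 3, which lay above normal replicate 1. The log2 ratio was 0.22 ± 0.10 in stress and 0.36 ± 0.09 in normal samples (SD, n = 3 each), a difference of −0.14 ± 0.08 SE (exact permutation p = 0.2, n = 3 per group). This is the test of whether the members differ in response, and no such difference was established; a p of this size does not show that they respond alike.

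The 5p arm held nearly all reads of both hairpins, and the 3p arm was rare throughout. miR-10a-3p had 25, 44 and 28 reads in stress replicates 1 to 3, against 28, 4 and 49 reads in normal replicates 1 to 3. Per 100000 reads of both arms this is 26.2, 27.8 and 26.3 in stress replicates 1 to 3, against 37.9, 4.71 and 20.8 in normal replicates 1 to 3. The stress samples were alike and the normal samples scattered around them, with normal replicate 2 low; its exact 95% binomial interval, 1.28 to 12.1 per 100000, lay below those of the other samples. The log2 ratio of the 5p to the 3p arm differed by −0.74 ± 0.85 SE (exact permutation p = 0.7, n = 3 per group), and by 0.07 without normal replicate 2.

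miR-10b-3p had 32, 30 and 42 reads in stress replicates 1 to 3, against 7, 11 and 45 reads in normal replicates 1 to 3. Per 100000 reads of both arms this is 37.5, 21.2 and 49.7 in stress replicates 1 to 3, against 11.4, 16.6 and 26.1 in normal replicates 1 to 3. The stress samples were mostly higher, but stress replicate 2 lay below normal replicate 3. The log2 ratio of the 5p to the 3p arm of miR-10b was 11.50 ± 0.62 in stress and 12.46 ± 0.56 in normal samples (SD, n = 3 each), a difference of −0.96 ± 0.48 SE (exact permutation p = 0.2). Among 40 miRNAs with both arms tested, this ratio was higher without overlap in 32.5% and lower in 25% of them, and miR-10a and miR-10b are in neither count.

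In edgeR with TMM, miR-10a-3p was at 0.11 ± 0.50 SE (adjusted p = 0.89) and miR-10b-3p at 0.74 ± 0.41 SE (adjusted p = 0.23) on the log2 scale, and neither passed. Without normal replicate 2, miR-10a-3p was at −0.27. Scaled to the miRNA total, miR-10b-3p passed as higher in edgeR (1.48 ± 0.44 SE, adjusted p = 0.021) and miR-10a-3p did not (0.82 ± 0.53 SE, adjusted p = 0.21).

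**Figure D5:**
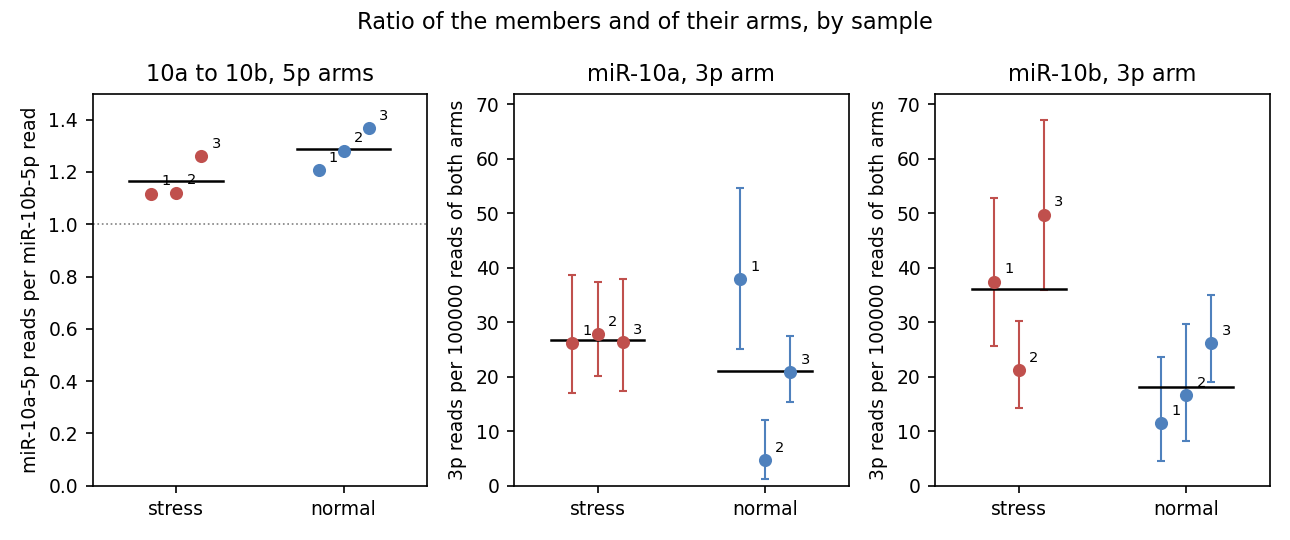
Reads of miR-10a-5p per read of miR-10b-5p (left), and 3p reads per 100000 reads of both arms for miR-10a (middle) and miR-10b (right), with exact 95% binomial intervals; numbers are replicates and lines are group means. The left ratio is above 1 in all 6 samples, and normal replicate 2 stands low for miR-10a-3p at 4.71.

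The other miRNAs of the Hox clusters were scarce. miR-196a, miR-196b and miR-615, which lie in the Hoxa, Hoxb or Hoxc clusters, together had 91, 88 and 53 reads in stress replicates 1 to 3, against 69, 41 and 151 reads in normal replicates 1 to 3. miR-10 reads outnumbered them 1987-fold to 3603-fold in stress and 1959-fold to 3689-fold in normal samples. miR-196a-5p (−0.22 ± 0.32 SE), miR-196b-5p (−0.77 ± 0.69 SE) and miR-615-3p (−0.15 ± 0.54 SE) did not pass in edgeR with TMM (adjusted p between 0.47 and 0.86). Of 9 Hox cluster features, 7 were tested and 0 passed in edgeR (12.7% of all miRNAs tested), 0 had an unadjusted p under 0.05 (32.2% of all) and 0 passed in DESeq2 (19.9% of all). Their median log2 fold change was −0.18, against 0.00 for all miRNAs tested. Scaled to the miRNA total, 3 of the 7 passed as higher, all of them miR-10 arms, where 40.7% of all miRNAs tested did so, and the median was 0.58 against 0.76.

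The related miR-99 and miR-100 were less abundant than miR-10. All arms of miR-99a, miR-99b and miR-100 took 1.85%, 2.11% and 2.13% of the reads in stress replicates 1 to 3, against 1.09%, 1.10% and 1.51% in normal replicates 1 to 3, without overlap, as for the shares of 56.8% of all tested miRNAs. miR-10 exceeded them by 9.36, 9.33 and 8.88 times in stress replicates 1 to 3, against 11.4, 12.3 and 8.82 times in normal replicates 1 to 3. In edgeR with TMM, miR-100-5p was at 0.18 ± 0.24 SE, miR-99a-5p at −0.10 ± 0.26 SE and miR-99b-5p at −0.27 ± 0.26 SE, and none of these passed (adjusted p between 0.52 and 0.82).

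Likeness of pattern was measured as the SD, over the 6 samples, of the log2 ratio of a miRNA to a member, which no scaling alters; 131 tested miRNAs other than the 4 arms, with a mean count of at least 100, were compared. miR-10a-5p and miR-10b-5p followed each other with an SD of 0.12, and the median over the 131 miRNAs was 0.46 for each member. Nearest to miR-10a-5p were miR-361-3p (SD 0.11), let-7i-5p (0.12), miR-182-5p (0.14), miR-465c-5p (0.16) and miR-744-5p (0.19). Nearest to miR-10b-5p were miR-210-3p (0.14), miR-182-5p (0.16), miR-361-3p (0.17), let-7i-5p (0.19) and miR-465c-5p (0.20). The miRNAs of a sample share its library and depth, so these SDs are descriptions with no test. let-7i-5p was near miR-10a-5p, while the let-7 family as a whole took a smaller share in stress samples. let-7i-5p and miR-465c-5p have near-identical relatives, so their single values are uncertain. The miR-10 5p arms are near-identical to each other, so the SD of 0.12 between them carries the same uncertainty.

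Summed markers of several other cell types were higher in the samples with the higher miR-10 share, as were the shares of 56.8% of all tested miRNAs. In edgeR with TMM 2.54% of all tested miRNAs passed as higher and 10.2% as lower, 32.2% had an unadjusted p under 0.05, and 19.9% passed in DESeq2; the lists hold few features beside these percentages, and no list was tested against them. Male germ cell miRNAs, all 17 present, took 0.710% to 0.863% of the reads in stress and 0.676% to 0.883% in normal samples. In edgeR with TMM 3 of 18 tested features passed as lower (10.2% of all miRNAs did). Their log2 fold changes went both ways, from −1.40 (miR-871-3p) to 1.14 (miR-883a-3p). Of these 18, 5 had an unadjusted p under 0.05 and 4 passed in DESeq2. Epithelial markers (7 of 7 present), which the epididymal lining expresses, took 2.95% to 3.24% in stress and 1.25% to 1.77% in normal samples. Of 9 tested features 0 passed in edgeR, 1 had an unadjusted p under 0.05 and 1 passed in DESeq2. These features also went both ways with TMM, from −0.60 (miR-200a-5p) to 0.90 (miR-205-5p) on the log2 scale. Stromal, smooth muscle and endothelial markers (6 of 6) took 0.934% to 1.09% in stress and 0.268% to 0.496% in normal samples. In edgeR with TMM 2 of 8 tested features passed as higher (2.54% of all miRNAs did). Of these 8, 3 had an unadjusted p under 0.05 and 3 passed in DESeq2. All 8 had positive log2 fold changes with TMM, from 0.07 (miR-145a-3p) to 1.96 (miR-145a-5p). Most of the stromal sum was miR-143-3p, which did not pass in edgeR (0.49, adjusted p = 0.24). Leukocyte markers (5 of 5) took 0.135% to 0.189% in stress and 0.0360% to 0.0814% in normal samples. Of 5 tested features 0 passed in edgeR, 3 had an unadjusted p under 0.05 and 3 passed in DESeq2. They did not move together: log2 fold changes with TMM were 2.09 (miR-223-3p), 1.27 (miR-150-5p), 0.87 (miR-146a-5p), −0.69 (miR-223-5p) and −0.76 (miR-142a-3p). Most of the sum was miR-146a-5p, with a mean of 967 CPM in stress and 530 CPM in normal samples. Red blood cell markers (4 of 4) took 0.0268% to 0.0817% in stress and 0.0341% to 0.102% in normal samples. Of 3 tested features 0 passed in edgeR, 2 had an unadjusted p under 0.05 and 2 passed in DESeq2. All 3 were lower in stress in edgeR with TMM: miR-486a-3p (−1.76), miR-486a-5p with miR-486b-5p (−1.47) and miR-451a (−0.18). No marker feature was at 0 in all samples, and the part of these cell types in the miR-10 result was not tested.

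Relative to these lists miR-10 did not move one way. There were 21.7, 22.8 and 26.6 miR-10 reads per germ cell marker read in stress replicates 1 to 3, against 17.8, 15.4 and 19.7 in normal replicates 1 to 3, higher in every stress sample, as for 47.2% of the tested miRNAs outside that list. Per epithelial marker read there were 5.33, 6.68 and 6.17 in stress replicates 1 to 3, against 7.29, 10.9 and 7.49 in normal replicates 1 to 3, lower in every stress sample, as for 27.8% of the tested miRNAs outside that list. Per stromal marker read there were 18.5, 19.8 and 17.4 in stress replicates 1 to 3, against 46.5, 29.5 and 26.8 in normal replicates 1 to 3, also lower in every stress sample, as for 41.2% of those outside that list. Per leukocyte marker read there were 127.6, 125.5 and 99.8 in stress replicates 1 to 3, against 312.2, 377.7 and 163.3 in normal replicates 1 to 3, again lower in every stress sample, as for 48.5% of those outside that list. Per red blood cell marker read there were 211.5, 423.1 and 704.7 in stress replicates 1 to 3, against 122.6, 155.9 and 390.2 in normal replicates 1 to 3, and these groups overlapped. The place of miR-10 relative to the marker lists was thus one that many other miRNAs shared.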

How the data were processed

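Sperm RNA was isolated with TRIzol and made into Illumina TruSeq libraries, per the labels' protocols; the submitters' processing notes name Bowtie, with no version. Build, read filters and the counting rule: not given in the sources used here. In the miRNA table, the authors deposited expected counts per mature miRNA; 91.99% of the values were whole within 0.001. The authors deposited piRNA values as RPM within the piRNA table. All of them were multiples of the smallest value of their column, which gave the piRNA reads; of this table only these totals were used. The tsRNA table was not used.

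Rounded counts went into edgeR 4.0.16 (R 4.3.3; filterByExpr at a minimum count of 10, TMM, glmQLFit, glmQLFTest), Benjamini-Hochberg over 236 miRNAs, threshold 0.05; SE is the log2 fold change over the square root of F. The test was tried on simulated counts with a set spread. It called 12 of 20 miRNAs changed by 1 log2 unit and 19 of 19 changed by 2, with 2 false calls. The spread was the same for every miRNA and was not estimated from these samples, so these rates need not hold for them. A miss of a change of 1 log2 unit or less remains possible. Shares and ratios used deposited values (0.5 added in arm ratios) and exact two-sided permutation tests in scipy 1.17.1. Intervals are exact binomial at 95%. Alternatives were other scalings, DESeq2 1.42.0, no filter, a replicate block and each sample left out. The members, lists, ratios and naming rules were chosen with earlier results of these data known. Named miRNAs are the members, other Hox cluster miRNAs, miR-99 and miR-100, and the 5 most alike in pattern to each 5p arm. Others are named only where they bear on a reference, a rank or a marker sum.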

Additional observations from a re-analysis of the deposited data

How the results depend on the processing

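The 5p fold changes depended on the scaling. miR-10a-5p was at 0.44 and miR-10b-5p at 0.58 on the log2 scale when scaled to the miRNA total, miR-10b-5p at 0.0038 scaled to the reads outside let-7 and miR-148/miR-152, and at 0.060 scaled to piRNA reads; miR-10b-3p passed at 1.48 scaled to the miRNA total. Among TMM, the miRNA total and the reads outside let-7 and miR-148/miR-152, such shifts follow from construction, since these scalings differ in the median of all miRNAs. The piRNA total is a reference from outside the miRNA table. With it the SE of miR-10b-5p was 0.64. With one sample left out at a time and TMM, miR-10a-5p ranged from −0.41 to −0.19, miR-10b-5p from −0.28 to −0.05, miR-10b-3p from 0.52 to 1.05 and miR-10a-3p from −0.27 (without normal replicate 2) to 0.64 (without normal replicate 1), and no member passed. Over all alternatives, the adjusted p lay between 0.029 and 0.97 for miR-10a-5p, 0.011 and 0.99 for miR-10b-5p, 0.21 and 0.996 for miR-10a-3p, and 0.021 and 0.95 for miR-10b-3p. The 5p to 3p ratio of miR-10a ranged from −1.37 to 0.065, the highest value being the one without normal replicate 2. The log2 ratio of miR-10a-5p to miR-10b-5p kept its sign, from −0.20 to −0.10, and the share difference of all arms ranged from 4.97 to 6.16 percentage points. The 30 miRNAs past the threshold became 106 scaled to the miRNA total, 6 scaled to piRNA reads, 47 with DESeq2, 49 without the filter, 55 without normal replicate 3 and 17 without stress replicate 3. In all, 129 of 142 alternative values kept their direction and side of the threshold, or stayed within 1.5 times for counts. For the share and ratio comparisons the exact permutation p cannot fall below 0.1, so only their direction could change. Adding 1 read or rounding values down hardly moves a ratio. The count of 129 is thus no measure of robustness.

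Deviations of same-numbered samples correlated at 0.11, −0.21 and 0.12, and stress replicates 1 and 2 correlated best with another number. The labels state no pairing, and these weak correlations cannot decide whether same-numbered samples were paired. With the replicate block 28 miRNAs passed, miR-10a-5p was at −0.32 (edgeR adjusted p = 0.085) and miR-10b-5p at −0.18 (adjusted p = 0.26), and no member's call changed. The block lowered the SE from 0.17 to 0.099 for miR-10a-5p and from 0.18 to 0.099 for miR-10b-5p. It raised the SE from 0.50 to 0.58 for miR-10a-3p and from 0.41 to 0.43 for miR-10b-3p. Scaling to the total of all 3 tables was not run, because whole reads could not be recovered from the fractional steps of the tsRNA table. The 3p arms had 4 to 49 reads per sample, so their counting error is wide; for miR-10a-3p the low normal replicate 2 lay outside it. With 3 samples per group, the spread between samples limits all comparisons.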
